A study of Cicer arietinum with 11 samples.

Results

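Only 3 of 34760 chickpea (Cicer arietinum) transcripts were shared by the shoot apical meristem and the 2 youngest flower bud samples while low in the seedling, the leaves and the flowers: Ca_TC25231, Ca_TC23810 and Ca_TC06680. They were chosen by their deposited RPKM (reads scaled by transcript length and by library total). The lowest of the meristem, flower bud 1 and flower bud 2 had to be at least 5 RPKM and at least 3 times the highest of the germinating seedling, young leaves and flowers 1 to 4. The meristem also had to lie within 4-fold of flower bud 1. Flower buds 3 and 4 were not used, so the levels there are the only ones in the bud series that the choice did not set.

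All plants were of the genotype ICC4958. The 11 mRNA libraries came from a germinating seedling, young leaves of the mature plant, the shoot apical meristem (plants aged 20 days), and flower buds 1 to 4 and flowers 1 to 4 of the mature plant. Per the labels, seedlings grew in a culture room and mature plants in the field, and the labels do not say where the plants aged 20 days grew. Growing site, plant age and tissue therefore cannot be told apart in comparisons with the seedling or the meristem. Young leaves, buds and flowers all came from mature plants in the field, with no age in days given. Each tissue or stage had 1 library, so no difference below has a replicate check and no test was made. The 95% intervals are exact Poisson intervals for a level and exact conditional binomial intervals for a ratio of 2 libraries. They cover counting error only. That the bud and flower numbers follow development is an assumption. Library totals, recovered from the RPKM values, ran from 14536530 reads in flower bud 2 to 35643139 in flower bud 3.

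The shoot apical meristem is the group of dividing, undifferentiated cells at the shoot tip from which leaves, stem and later flowers arise. Young flower buds hold floral meristems, which lay down the floral organs and then cease to divide. In other plants, classes of genes for cell division and for keeping cells undifferentiated are known to be active in both. The deposited files give transcript IDs without gene names, and 0 of the 34760 IDs were found among the 29938 genes of the reference table. What the 3 transcripts encode is therefore not stated, no list of meristem or floral genes could be applied, and the labelled tissues could not be checked against marker genes. In bulk tissue, fewer cells of a type and less RNA per cell cannot be told apart.

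Ca_TC25231 was a flat plateau that ended after flower bud 4. It had 16.4 RPKM in the meristem (178 reads, 95% interval 14.1 to 19.0), 16.7 in flower bud 1, 17.4 in flower bud 2, 18.4 in flower bud 3 and 16.2 in flower bud 4. Outside this run it had 2.19 RPKM in the germinating seedling, 0.321 in young leaves, and 1.76, 1.59, 0.999 and 1.75 in flowers 1 to 4. The 5 high libraries did not differ from their neighbours in rank beyond counting error, and neither did the 6 low ones. The 1 step between neighbours in rank beyond counting error was from flower bud 4 to the seedling, 7.38-fold (95% interval 4.53 to 12.8). The low libraries were not all at 1 level. The 95% intervals of the seedling (1.30 to 3.46 RPKM) and young leaves (0.0662 to 0.938 RPKM) did not overlap. From flower bud 4 to flower 1 the level went to 0.109 of its value (95% interval 0.0596 to 0.185). Its recovered length was 344 bases.

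Ca_TC23810 had a peak in flower bud 1 and was lower at each later bud stage. It had 9.89 RPKM in the meristem (149 reads, 95% interval 8.37 to 11.6), 36.2 in flower bud 1, 12.8 in flower bud 2, 7.22 in flower bud 3 and 2.89 in flower bud 4. The other libraries held 2.71 RPKM in the seedling, 0.154 in young leaves (2 reads), and 1.35, 1.504, 1.75 and 2.68 in flowers 1 to 4. Flower bud 1 stood above all others. The meristem had 0.274 times its level (95% interval 0.227 to 0.328), an interval that crosses the 4-fold limit of the rule. The meristem and flower bud 2 did not differ beyond counting error, at a ratio of 0.772 (95% interval 0.590 to 1.02). Flower bud 3 had 0.564 times the level of flower bud 2 (95% interval 0.426 to 0.749), and flower bud 4 had 0.40 times that of flower bud 3 (95% interval 0.274 to 0.574). By flower bud 4 the level was no longer distinguishable at this depth from the seedling, the highest of its low libraries. The ratio was 1.07 (95% interval 0.652 to 1.76). Flower 1 was lower still, at 0.468 times flower bud 4 (95% interval 0.245 to 0.852). The recovered length was 478 bases.

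Ca_TC06680 had the same order of its 5 highest libraries as Ca_TC23810, each at a lower level. It had 5.18 RPKM in the meristem (148 reads, 95% interval 4.38 to 6.09), 12.1 in flower bud 1, 6.68 in flower bud 2, 2.69 in flower bud 3 and 1.82 in flower bud 4. It had 0.415 RPKM in the seedling, 0.285 in young leaves, and 1.34, 0.642, 0.488 and 1.11 in flowers 1 to 4. Flower bud 1 was again the highest, with the meristem at 0.429 times its level (95% interval 0.352 to 0.520). The meristem and flower bud 2 did not differ beyond counting error (ratio 0.776, 95% interval 0.592 to 1.02). Of the steps after flower bud 2, that to flower bud 3 had the lowest ratio, at 0.403 (95% interval 0.296 to 0.549). The next step, to flower bud 4, was 0.676 (95% interval 0.466 to 0.970), whose interval overlaps the first, and flower 1 against flower bud 4 gave 0.734 (95% interval 0.450 to 1.18), which counting error does not separate from 1. The meristem exceeded the seedling 12.5-fold (95% interval 6.40 to 27.9), against 7.51-fold for Ca_TC25231 and 3.65-fold for Ca_TC23810. Its recovered length was 906 bases, against a median of 736 over all transcripts with a value above 0.

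**Figure D1:**
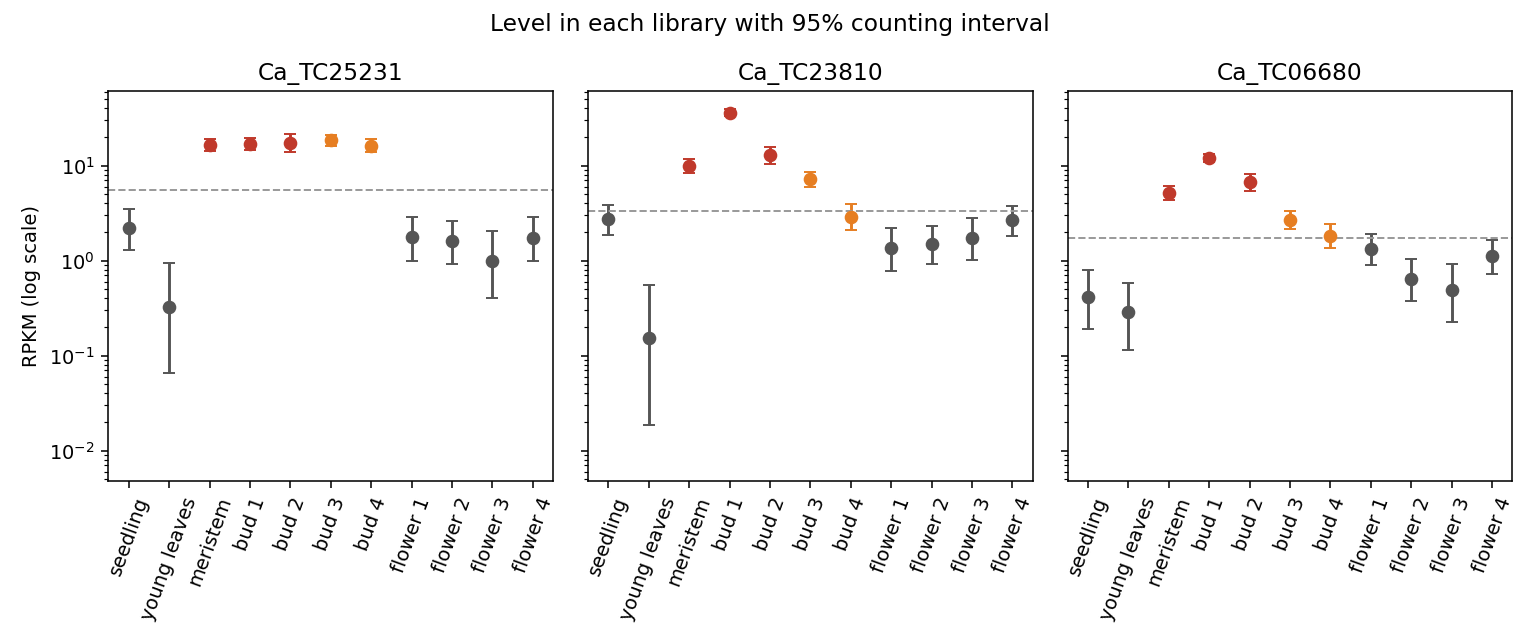
RPKM (log axis) of the 3 transcripts in the 11 libraries, 1 point per library with its 95% Poisson interval, red for the libraries with a minimum in the rule, orange for flower buds 3 and 4, grey for those with a maximum. The dashed line lies 3-fold below the lowest red point, the meristem. The time of the fall is instead set against the lower of flower buds 1 and 2. Flower bud 4 of Ca_TC06680, at 0.351 times the meristem, therefore lies above the dashed line. Ca_TC25231 stays near 16 to 18 RPKM through flower bud 4, while Ca_TC23810 and Ca_TC06680 decline from flower bud 1 through flower bud 4.

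The time of the fall was set by the first bud stage more than 3-fold below the lower of flower buds 1 and 2, a line that every member is under in flower 1 by the rule itself. No member had fallen by flower bud 3 on this measure. First past the line in flower bud 4 were 2 (Ca_TC23810 and Ca_TC06680), and 1 was held through flower bud 4 (Ca_TC25231). For Ca_TC23810 and Ca_TC06680 the lower early bud was flower bud 2, itself below the flower bud 1 peak. It had 0.354 of the flower bud 1 level for Ca_TC23810 (95% interval 0.280 to 0.4435) and 0.552 for Ca_TC06680 (95% interval 0.433 to 0.699). Flower bud 3 was at 7.22 RPKM against 36.2 in flower bud 1 for Ca_TC23810, and at 2.69 against 12.1 for Ca_TC06680. Their levels were thus falling before flower bud 3. Among all 17064 transcripts with at least 5 RPKM in both early buds, 0.293% had fallen by flower bud 3, 1.1% fell at flower bud 4, 0.182% were low in flower bud 3 alone and 98.4% were held. In all, 1.39% were past the line in flower bud 4. No member was 1.5-fold or more above the higher early bud in flower bud 3, where 3.38% of that background were. Relative to the lower early bud, flower bud 4 had 0.225 of the level for Ca_TC23810 (95% interval 0.152 to 0.330) and 0.273 for Ca_TC06680 (95% interval 0.188 to 0.391). The interval of Ca_TC23810 lies wholly past the 3-fold line and that of Ca_TC06680 crosses it. For Ca_TC25231 flower bud 3 had 1.10 times the lower early bud (95% interval 0.905 to 1.34) and flower bud 4 had 0.964 times (95% interval 0.779 to 1.19).

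Few transcripts passed the upper limits together. The meristem and both early buds reached 5 RPKM for 15178 transcripts. Of these, 1215 (8.01%) were at least 3-fold above young leaves, 378 (2.49%) above the seedling, and 192, 158, 654 and 338 above flowers 1 to 4. Both vegetative limits together left 140 and the 4 flower limits 43. All 6 left 3, which is 0.00863% of all transcripts, and the 4-fold band on the meristem removed none. Leaving the seedling out of the limit gave 25 transcripts, young leaves 10, flower 1 gave 8, and flower 2, 3 or 4 gave 4 each.

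Most early-bud transcripts were low in the meristem. With the same limits on the seedling, leaves and flowers and the meristem left free, 242 transcripts had at least 5 RPKM in both early buds. The meristem was 3-fold or more below the lower early bud in 218 of them (90.1%), under 1 RPKM in 149 (61.6%) and at 0 reads in 64 (26.4%). The median ratio of meristem to lower early bud was 0.0314. Of the 24 transcripts (9.92%) less than 3-fold below, 6 were under 5 RPKM in the meristem, 15 failed because the meristem was less than 3 times another library, and 3 are the members. Ca_TC25231 had the highest ratio of the 242, at 0.981, and none reached the level of the lower early bud. From the other side, 812 transcripts met the limits with the meristem alone, both early buds free. Both buds were at least 3-fold below the meristem in 578 of these (71.2%), both were less than 3-fold below in 105 (12.9%), and the median ratio of the lower bud to the meristem was 0.11.

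**Figure D2:**
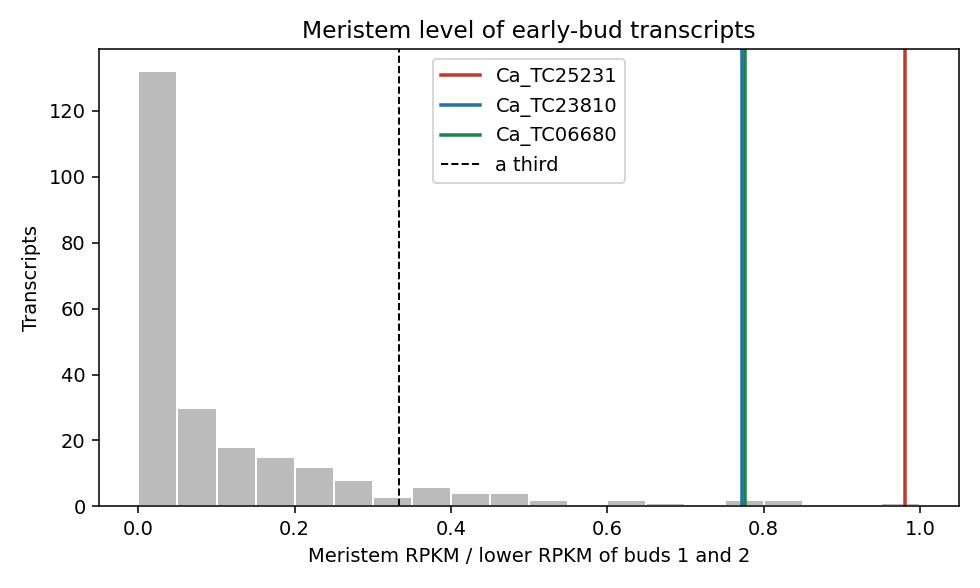
Number of transcripts (vertical axis) by the ratio of meristem RPKM to the lower RPKM of flower buds 1 and 2 (horizontal axis), for the 242 early-bud transcripts with the meristem left free. The dashed line marks a 3-fold lower meristem; 218 transcripts lie at or left of it, and the coloured lines mark the members at 0.772, 0.776 and 0.981.

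Other libraries were put in the meristem's place to set this count beside the same count for each, a comparison added after the data were seen. With a library left free and all other limits kept, the free library was less than 3-fold below the lower early bud for 24 of 242 transcripts for the meristem, 20 of 238 for the seedling and 18 of 236 for young leaves. The counts were 17 of 235 for flower 1 and 6, 8 and 11 for flowers 2, 3 and 4. When that library and both buds all had to clear every limit, 3 transcripts remained for the meristem, 10 for the seedling, 3 for young leaves and 0 for each flower. No band was applied in this comparison. The sets share the 2 bud libraries, so the counts are given side by side only.

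Early-bud transcripts low in the meristem differed widely in when they fell. Of the 218 early-bud transcripts low in the meristem, 36 (16.5%) had fallen by flower bud 3, 64 (29.4%) fell at flower bud 4, 117 (53.7%) were held through flower bud 4, and 1 was low in flower bud 3 alone. Their median level relative to the lower early bud was 0.913 in flower bud 3 and 0.392 in flower bud 4. In the 17064 background transcripts it was 1.03 and 0.998. The 218 had to be at least 3-fold lower in flowers 1 to 4, and the background had no flower limit. A fall toward flower 1 is therefore partly built into the 218, and the 2 sets of medians are not like for like. With 3 members, no difference from these sets can be claimed.

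A wider set, with the fold lowered from 3 to 2, held 45 transcripts: the 3 members and 42 between 2- and 3-fold. In the 42 the lowest of the 3 high libraries ran from 5.14 to 320 RPKM, with a median of 10.7. Lengths ran from 142 to 2491 bases, and the fewest reads in a high library were 16. No counting intervals are given for the 42, so transcripts near a limit may change class within counting error. The meristem was within 2-fold of flower bud 1 in 36 of the 42, with a median ratio of 1.01. In 36 (85.7%) the level was held through flower bud 4, in 5 (11.9%) it fell at flower bud 4 and in 1 (2.38%) by flower bud 3. Held here means no more than 3-fold lower. Flower bud 4 was more than 2-fold below the lower early bud in 13 of the 42, and above the higher early bud in 4. The median level relative to the lower early bud was 0.823 in flower bud 3 and 0.686 in flower bud 4. In 21 of the 42 the level was lower at each step from flower bud 2 through flower bud 4 to flower 1, as it was in 2 of the 3 members and in 20.9% of the 17064 background transcripts. The low level in flower 1 is partly set by the rule, and for Ca_TC06680 the last step was within counting error. Their highest low library was most often flower 1, in 12 of the 42, followed by the seedling and young leaves with 8 each.

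Just outside the fold limit lay Ca_TC34430 at 2.98-fold and Ca_TC30230 at 2.95-fold. Just inside were Ca_TC23810 at 3.65 and Ca_TC06680 at 3.88. Ca_TC34430 (240 bases) and Ca_TC30230 (160 bases) had as few as 42 and 50 reads in a high library. No intervals are given for these 2, so their place outside the limit may lie within counting error. Ca_TC34430 resembled the declining pair, with 7.27 RPKM in the meristem, 17.7, 12.0, 6.90 and 0.982 in flower buds 1 to 4, and at most 2.44 elsewhere, in the seedling. Ca_TC30230 had 13.1 RPKM in the meristem and 15.7, 21.5, 19.6 and 9.89 in flower buds 1 to 4, and its seedling level was 4.44. No transcript lay close under the level limit of 5 RPKM. The nearest were Ca_TC26972, with 2.63 RPKM in its lowest high library, and Ca_TC26483, with 2.42. The members nearest that limit had 5.18 and 9.89 RPKM.

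The next 3 of the 42 were picked after their values were seen, 2 for their course and 1 for its abundance. Ca_TC26089 had 8.53 RPKM in the meristem and 8.36 in flower bud 1, then 108, 251 and 44.8 in flower buds 2 to 4, with 1.14 in flower 1. Ca_TC24721 had 7.82, 7.79 and 7.83 RPKM in the meristem and flower buds 1 and 2, and 0.482 in flower bud 3. It was at 2.42 in flower bud 4, so its level in flower bud 3 was below those of both neighbouring stages. Ca_TC11572 was the most abundant of the set, at 442 RPKM in the meristem, 341, 320, 253 and 126 in flower buds 1 to 4, and 48.8 in flower 1.

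**Figure D3:**
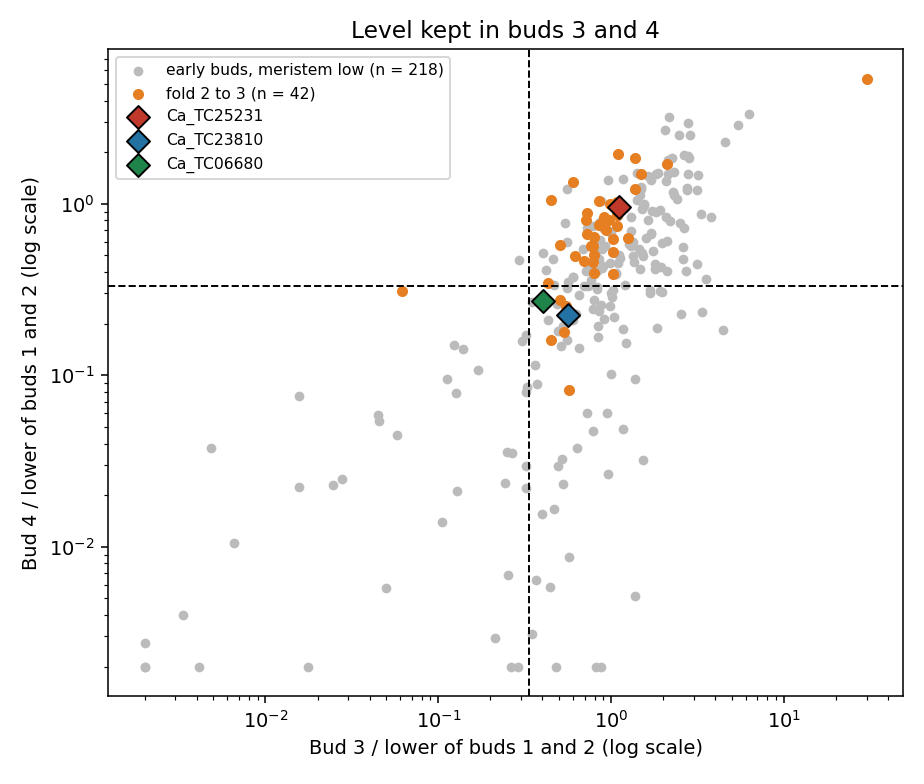
Level in flower bud 3 (horizontal) and flower bud 4 (vertical), each divided by the lower of flower buds 1 and 2, on log axes, with 1 point per transcript; 10 points with a value under 0.002 are drawn at that limit. Dashed lines mark a 3-fold drop: Ca_TC23810 and Ca_TC06680 lie below the horizontal line and right of the vertical one, and Ca_TC25231 lies near 1 on both axes.

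**Figure D4:**
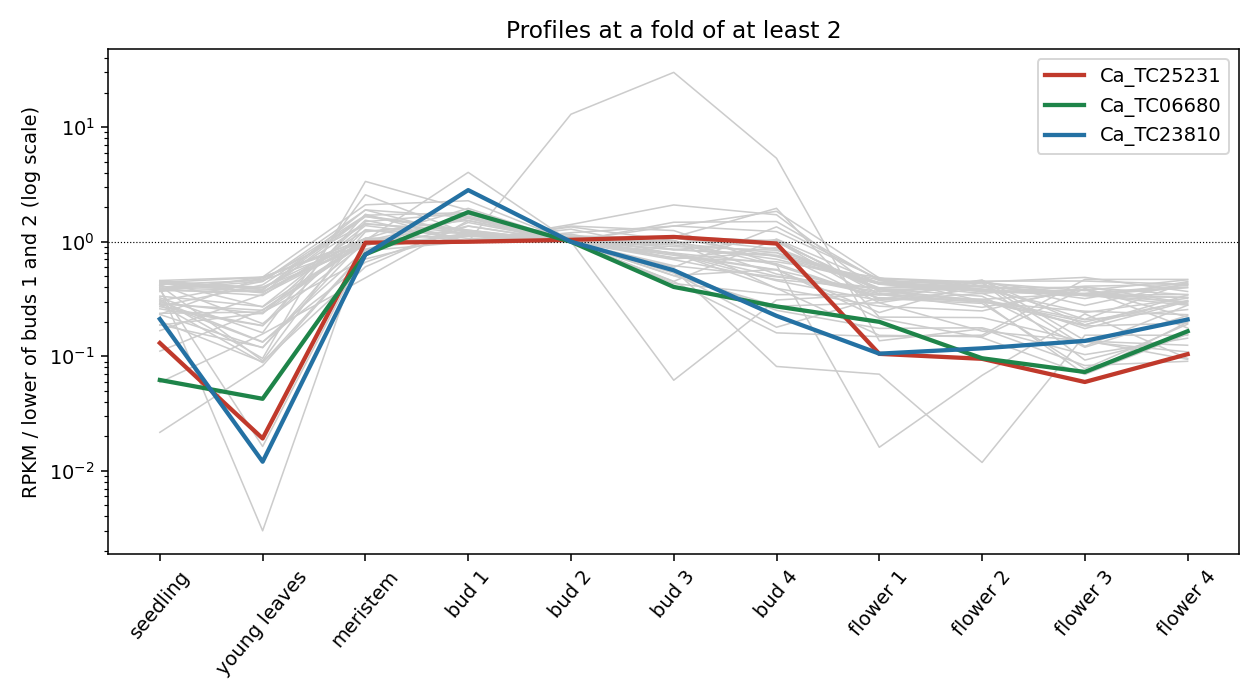
RPKM divided by the lower of flower buds 1 and 2 (log axis) in the 11 libraries for the 45 transcripts with a fold of at least 2, with 1 line each and the 3 members coloured; 1 value under 0.003 is drawn at that limit. Lines join separate libraries as a guide; the grey line that rises above all others is Ca_TC26089, with 251 RPKM in flower bud 3.

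Ca_TC23810 and Ca_TC06680 were more like each other than like Ca_TC25231 over the 11 libraries. Pearson's r of log2(RPKM + 1) was 0.947 for that pair, and 0.832 and 0.846 for each with Ca_TC25231. All 3 share the contrast that chose them, so a high r is built in. Among the 27147 transcripts that reached 5 RPKM somewhere, the most alike to Ca_TC25231 were Ca_TC22541 (r = 0.984) and Ca_TC01040 (r = 0.977). Those most alike to Ca_TC23810 were Ca_TC08322 (r = 0.977) and Ca_TC16346 (r = 0.972), and to Ca_TC06680 they were Ca_TC21300 (r = 0.982) and Ca_TC13810 (r = 0.972). None of these 6 met the rule: their folds ran from 1.34 for Ca_TC16346 to 2.81 for Ca_TC13810. Ca_TC22541 repeated the plateau at a lower level, with 3.50 RPKM in the meristem, 5.09, 4.18, 4.80 and 3.76 in flower buds 1 to 4 and 0.951 in flower 1. Ca_TC13810 had 8.10 RPKM in the meristem and 17.0, 9.83, 4.96 and 2.69 in flower buds 1 to 4, and missed the fold limit through its 2.88 in flower 1. The likeness measure was chosen after the data were seen.

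Ca_TC25231 kept its membership under each scaling tried, and the declining pair lost it under 2 of 3. The fold of the lowest high library over the highest low one was 7.51 for Ca_TC25231 (95% interval 4.62 to 13.0), 3.65 for Ca_TC23810 (95% interval 2.47 to 5.56) and 3.88 for Ca_TC06680 (95% interval 2.61 to 5.95). With median-of-ratios scaling Ca_TC23810 had a fold of 2.95 and the lowest high level of Ca_TC06680 was 4.36 RPKM, so only Ca_TC25231, at 6.07-fold, still met the rule. Quantile normalization likewise left only Ca_TC25231, at 7.68-fold, and a rescaling to equal library sums kept all 3. With quantile normalization the meristem of Ca_TC23810 was at 0.232 of flower bud 1, outside the 4-fold band. Median-of-ratios scaling shifted the median of all transcripts by -0.25 on the log2 scale in the meristem and by 0.40 in young leaves.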

How the data were processed

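Per the series text, NGS QC Toolkit was used on the reads before mapping to a set of 34760 transcripts, and the authors deposited RPKM per transcript and library, 1 library per tissue or stage. No source used here names the aligner or says how reads common to similar transcripts were counted, and RPKM of close copies may be uncertain for that reason. The 128 blank rows of each file were left out.

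Totals, lengths and whole reads were recovered from the deposited RPKM values. Ratios of low values gave relative depths, and each length (100 bases or more) was the smallest giving whole reads in all 11 libraries, within 4e-09 of the value plus 3e-06 reads. All 34703 transcripts above 0 came out whole, and the reads summed to 99.952% to 99.998% of the totals. On simulated data of 6000 transcripts 11 of 11 totals were returned exactly. A count test on these reads was not run, because each tissue or stage has 1 library.

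The members, comparison sets and alternatives were chosen with earlier results of these data known. The rule for named transcripts was the members plus the 2 transcripts nearest outside each limit. Others are stated as picked later. Classes of fall used a 3-fold drop. Python 3.11.15, pandas 2.3.3 and scipy 1.17.1 were used. Alternatives covered levels, folds, bands, libraries left out, pseudocount and scaling.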

Additional observations from a re-analysis of the deposited data

How the results depend on the processing

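The number of members moved with nearly every limit. It was 6 at a minimum of 2 RPKM and 1 at 10 RPKM, 45, 1 and 0 at folds of 2, 5 and 10, and 1 with the meristem within 2-fold of flower bud 1. It was 1 with a pseudocount of 1, 1 with median-of-ratios scaling, 1 with quantile normalization and 7 when each library was rescaled to the same sum. It was 25, 10 and 8 without the seedling, young leaves or flower 1 in the upper limit, and 1 when counting limits replaced the values. It stayed within 1.5 times of 3 without the band and without flower 2, 3 or 4. Members fallen by flower bud 3 became 1 with a 2-fold drop, 1 against the geometric mean of flower buds 1 and 2, and 1 in the set at a fold of 2. Flower bud 1 alone was not tried as the reference. Against it, flower bud 3 was more than 3-fold lower for Ca_TC23810 (7.22 against 36.2 RPKM) and Ca_TC06680 (2.69 against 12.1 RPKM). Members fallen at flower bud 4 became 1 with a 2-fold drop, 0 with a 5-fold drop, 1 against the geometric mean, 1 against the meristem, 1 with the pseudocount, 0 at 10 RPKM and 7 in the set at a fold of 2. Members held became 3 with a 5-fold drop, 2 against the meristem, 2 with the pseudocount and 37 in the set at a fold of 2. Members higher in flower bud 3 became 1 in that set. With the 3 members chosen on deposited RPKM kept, median-of-ratios scaling and quantile normalization moved none of the 4 counts of timing. Only Ca_TC25231 met the rule itself under either scaling. Meristem transcripts low in early buds numbered 1386, 217 and 46 at folds of 2, 5 and 10 and 370 with median-of-ratios scaling. Of the early-bud transcripts low in the meristem, 23 fell by flower bud 3 with a 5-fold drop. The number higher in flower bud 3 was 37 against the geometric mean and 5 at 10 RPKM. For counts that moved with scaling or the pseudocount, the cause was not tested.

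In flower bud 2, the shallowest library, the members had 87 to 89 reads, and in young leaves 2 to 7, so levels and ratios there carry wide counting intervals. No paired analysis was possible because each tissue or stage has 1 library.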

Other observations

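Lowering the minimum from 5 to 2 RPKM at the same fold added 3 transcripts, which passed on few reads. Ca_TC26972 had 3.64 RPKM in the meristem and 6.02, 2.63, 1.07 and 0.429 in flower buds 1 to 4, with 6 reads in its shallowest high library. Ca_TC26483 had 2.48 RPKM in the meristem and 2.42, 3.33, 0.730 and 0.375 in flower buds 1 to 4, with at least 13 reads in each high library. Ca_TC30791 had 2.41 RPKM in the meristem and 2.52, 2.61, 2.39 and 0.957 in flower buds 1 to 4, with at least 8 reads. Relative to the lower early bud, flower bud 4 had 0.163 of the level for Ca_TC26972, 0.155 for Ca_TC26483 and 0.380 for Ca_TC30791. In flower bud 3 the ratios were 0.408, 0.302 and 0.950. Ca_TC26483 was thus past the 3-fold line from flower bud 3, Ca_TC26972 in flower bud 4, and Ca_TC30791 in neither.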
